A study of Mus musculus with 32 samples.

Results

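The genes described here encode 41 members of the main DNA repair pathways, taken by symbol from a fixed list and all present among the 23517 genes of the count table. They comprise 9 genes of base excision repair, 12 of nucleotide excision repair, 3 of mismatch repair, 5 of homologous recombination, 5 that sense double-strand breaks, 4 of end joining and 3 of the Fanconi anaemia pathway. Expression was measured by barcoded RNA sequencing in Lgr5-EGFP+ cells sorted from proximal colonoids of 8 Lgr5-EGFP-IRES-CreERT2 mice, each grown for 4 days untreated and with 250 nM bethanechol (Bch), a muscarinic receptor agonist. Each mouse and treatment was sequenced as 2 technical replicates, which were summed, giving 16 sums.

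The mice fall into the sets BR1-BR4 and BR7-BR10. BR1-BR4 are labelled male, with sorted Lgr5+ cells as the source and a micro-scale RNA kit. BR7-BR10 carry no sex in their labels, with colonic organoids as the source and a mini-scale RNA kit. The series counts 4 female and 4 male mice, so BR7-BR10 are taken to be female, but sex, kit and labelled source cannot be told apart in any comparison of the sets. All groups carry the reporter allele, in which EGFP and a tamoxifen-activated Cre are expressed from the Lgr5 locus, and all were grown in the same Wnt-conditioned medium. Ages are not given in the labels. Most sums came from 3000 sorted cells, with 13114 in untreated mouse 1 and 2361 in untreated mouse 3. The 32 libraries held 267146 to 2119938 UMIs (unique molecular identifiers, each tagging 1 captured mRNA), and the shallowest sum, untreated mouse 3, held 557512.

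The sorted cells were epithelial. Epcam lay between 792 and 1357 CPM (UMIs scaled to a common library total) in the 16 sums, while the leukocyte gene Ptprc was at 0 in 14 of them, and the summed level of 10 non-epithelial markers was 2.32 to 20.1 CPM. Lgr5 itself was read at 12.6 to 39.1 CPM and the stem cell factor Ascl2 at 150 to 432 CPM. The 15 stem cell markers summed to 696 to 1165 CPM. Markers of differentiated cells were also read, with sums of 3937 to 14831 CPM for 11 goblet cell genes, 1178 to 2569 CPM for 13 colonocyte genes and 320 to 1127 CPM for 12 enteroendocrine genes. The X-inactivation transcript Xist was at 44.7 to 162 CPM in BR7-BR10 and at 11.9 to 24.5 CPM in BR1-BR4, and the Y-linked gene Eif2s3y at 2.53 to 8.64 CPM and 37.2 to 64.1 CPM. The sets did not overlap for either gene, but each sum of BR7-BR10 held at least 6 UMIs of Eif2s3y and each sum of BR1-BR4 at least 13 of Xist. The part of this signal in the results below was not tested.

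DNA repair proteins remove damage that arises in every dividing cell. In base excision repair a glycosylase cuts out a damaged base, an endonuclease opens the strand, and a polymerase, a ligase and their scaffold close the gap. Nucleotide excision repair removes bulky lesions as short oligonucleotides, mismatch repair corrects replication errors, and double-strand breaks are sensed by the MRN complex and its kinases and are rejoined directly by end joining or copied from the sister chromatid by homologous recombination. In the colon, rapidly dividing crypt stem cells depend on these pathways, and inherited defects of mismatch repair and of the glycosylase Mutyh lead to colorectal tumours in people.

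Promoters from RefSeq (build GRCm38.p6, the 250 bases before the annotated start) were found for 33 of the 41 genes, and 3 are printed because they stand near the top or bottom of the range of levels or carry letters that few promoters hold. Capitals mark the searched motifs on either strand. These were the CCAAT box, the GC box written GGGCGG, the cyclic AMP response element written TGACGTCA, and the E2F motif written TTTNNCGC with C or G at each N. Rad23b encodes the partner of the lesion sensor Xpc and had the second highest level (chr4:55349792-55350041, plus strand), Fanca encodes a core subunit of the Fanconi complex and was among the lowest (chr8:123318577-123318826, minus strand), and Brca2, the loader of the recombinase, holds both the E2F motif and the cyclic AMP element (chr5:150522371-150522620, plus strand).
Rad23b: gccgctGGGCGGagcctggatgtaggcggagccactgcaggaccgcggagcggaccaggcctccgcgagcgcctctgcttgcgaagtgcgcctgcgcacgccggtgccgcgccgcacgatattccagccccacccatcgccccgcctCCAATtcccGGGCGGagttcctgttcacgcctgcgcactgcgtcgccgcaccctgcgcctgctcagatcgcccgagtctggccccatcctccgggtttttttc
Fanca: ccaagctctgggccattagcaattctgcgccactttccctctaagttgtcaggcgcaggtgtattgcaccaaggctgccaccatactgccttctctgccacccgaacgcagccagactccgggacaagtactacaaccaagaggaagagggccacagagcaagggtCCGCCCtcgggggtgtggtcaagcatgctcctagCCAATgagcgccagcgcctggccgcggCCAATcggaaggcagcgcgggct
Brca2: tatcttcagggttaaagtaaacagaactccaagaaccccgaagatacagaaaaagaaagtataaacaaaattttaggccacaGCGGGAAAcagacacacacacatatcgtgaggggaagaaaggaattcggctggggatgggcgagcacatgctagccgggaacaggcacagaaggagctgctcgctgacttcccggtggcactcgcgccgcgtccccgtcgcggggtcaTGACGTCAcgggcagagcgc

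The E2F motif was present in 5 of the 33 promoters (15.2%), against 2.16% of all 27025 promoters and 4.31% of those of the genes tested over the 16 sums. These 5 belong to Brca2, Bard1, Msh3, Nthl1 and Xrcc6. All but the window of Brca2 overlap an annotated UTR of some gene on either strand, and those of Bard1 and Xrcc6 lie partly or wholly within the gene's own span in GENCODE M21. CCAAT was present in 54.5% of the members' promoters and 41.2% of those of tested genes, GGGCGG in 75.8% and 66.1%, and the cyclic AMP element in 6.06% and 3.23%, the last in Brca2 and Rad51c. A match describes these letters in this window and does not show a bound factor.

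Levels are TMM-normalized CPM. Since each UMI counts 1 mRNA at its 3′ end, whatever its length, the values of different genes can be set side by side without dividing by length. In untreated cells the mean level over 8 mice spanned 1.07 CPM for the recombinase paralog Rad51c to 242 CPM for Apex1, the endonuclease that cuts at abasic sites. The members' median was 8.02 CPM, the level of the helicase gene Ercc3, and 66.2% of all genes with at least 1 UMI lay at or below it. Together the 41 genes gave 27881 UMIs, of which Apex1 held 27.9%, and took 0.0639% to 0.098% of the UMIs of a sum.

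**Figure D1:**
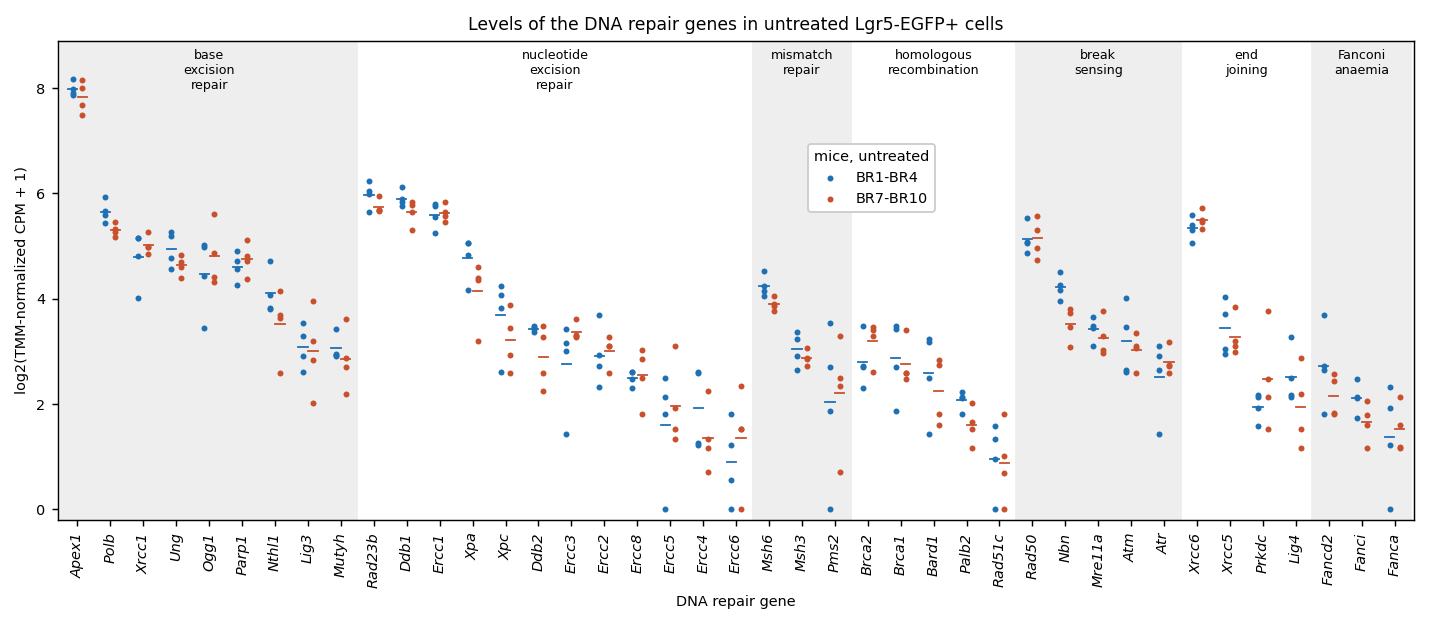
Untreated levels of the 41 DNA repair genes, as log2(TMM-normalized CPM + 1) on the vertical axis, grouped by pathway and ordered by mean level on the horizontal axis. Each point is 1 mouse, blue for BR1-BR4 and red for BR7-BR10, and each bar is the mean of 4 mice. Apex1 stands alone at the top (179 to 287 CPM), and Fanca, Ercc6 and Rad51c lie near the bottom.

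Apex1 stood apart from every other member: its lowest untreated value, 179 CPM in mouse 7, was above the highest value of Rad23b, 74.2 CPM. Of the 40 neighbouring pairs in the order of levels, this was the only 1 whose ranges did not overlap. In BR7-BR10 Apex1 was at 179, 203, 256 and 286 CPM in untreated mice 7, 8, 9 and 10, and in BR1-BR4 at 234, 287, 241 and 253 CPM in mice 1, 2, 3 and 4. Rad23b (57.8 CPM), Ddb1 (54.2 CPM), the adaptor of a damage-sensing ubiquitin ligase, and Ercc1 (48.3 CPM), which holds the nuclease Ercc4 at the lesion, followed, all of nucleotide excision repair. The next were the gap-filling polymerase Polb (44.2 CPM) and Xrcc6 (42.1 CPM), a subunit of the Ku ring that binds broken ends.

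Some partners in a complex were read at unequal levels and others were not. Ercc1 was at a mean of 48.3 CPM and its nuclease partner Ercc4 at 2.50 CPM. The Ku subunits Xrcc6 and Xrcc5 were at 42.1 and 9.69 CPM, and within the MRN complex Rad50 was at 35.0, Nbn at 14.3 and the nuclease Mre11a at 9.32 CPM. Ddb1 was at 54.2 CPM and its damage-binding partner Ddb2 at 8.36 CPM. In these 4 complexes, picked after their values were seen, the untreated ranges of the highest and lowest subunit did not overlap. The ranges overlapped for Brca1 and Bard1 (6.54 and 4.89 CPM), for the TFIIH helicases Ercc2 and Ercc3 (7.12 and 8.02 CPM) and for Fancd2 and Fanci (4.96 and 2.81 CPM). The member ligases were at 7.87 CPM for Lig3 and 4.14 CPM for Lig4, which seals joined ends.

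By pathway, the median member level was 26.0 CPM in base excision repair, 9.32 CPM in break sensing, 8.19 CPM in nucleotide excision repair, 6.98 CPM in end joining, 6.90 CPM in mismatch repair, 4.89 CPM in homologous recombination and 2.81 CPM in the Fanconi genes. The 3 lowest members were Fanca (2.01 CPM), the transcription-coupled repair factor Ercc6 (1.52 CPM) and Rad51c (1.07 CPM). Rad51c had 0, 4, 2 and 2 UMIs in untreated mice 7, 8, 9 and 10 and 2, 3, 0 and 3 in untreated mice 1, 2, 3 and 4. These values lie at or near the level of 3 UMIs, the limit that a count of 0 allows, which was 0.741 to 5.38 CPM depending on the sum and covers counting error only. At least 1 sum was at 0 for 8 members, with Ercc6 at 0 in 5 of the 16.

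The spread among untreated mice of a set was set beside that of Poisson counting, as a description. The median coefficient of variation over the 41 genes was 31.4% in BR1-BR4, against 33.6% from Poisson counting, and 35.0% in BR7-BR10, against 27.6%. The spread was above the counting value for 26 of the 41 genes in BR1-BR4 and 28 in BR7-BR10. It was over 2 times the counting value for Apex1, Ogg1, Prkdc, Lig3 and Rad50 in BR7-BR10 and for Ogg1 in BR1-BR4. Ogg1, the glycosylase for oxidized guanine, was at 47.7, 18.9, 20.3 and 28.4 CPM in untreated mice 7, 8, 9 and 10 and at 31.6, 9.94, 30.5 and 20.7 CPM in mice 1, 2, 3 and 4. Mouse 7 was the highest of the first set and mouse 2 the lowest of the second, and the sets overlapped.

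For 13 of the 41 genes the last 500 annotated bases of a transcript overlap another gene, in each case on the opposite strand and for the mismatch repair gene Pms2 also on the same one. The share of 65-base words near the 3′ end found in the other gene's transcripts as well was 72.2% for Apex1 (with Pip4p1), 65.3% for Ddb2 (with Acp2), 35.0% for Lig3 (with Rffl) and 22.9% for Ercc2 (with Klc3). The strand setting of the counting is not given in the sources used here, so the counts of these genes are uncertain.

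The first question was whether Bch changed the repair genes in BR7-BR10. None of the 29 members that passed the filter on low counts was called there at an adjusted p under 0.05 (edgeR's quasi-likelihood test with Benjamini-Hochberg adjustment over all genes), and 0% of the 9515 tested genes were. The log2 changes of the members ran from −0.625 to 0.47, with 13 above 0 (49.5% of all genes were) and 16 below 0 and a median of −0.049, against a median of −0.0022 over all tested genes. The members' median was 0.092 without mouse 7 and 0.0506 without mouse 10. At an unadjusted p under 0.05 there was 1 member, on the higher side, where 3.78% of all genes passed. DESeq2 also called 0 and gave 1 at the unadjusted limit. The paper, by hallmark gene set enrichment, lists DNA repair among the pathways lowered by Bch in female Lgr5-EGFP+ cells. That measure ranks all genes and scores a whole set, while single genes were tested here and no set test was run.

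Ddb1 had the smallest p. It was at 49.0, 56.1, 38.6 and 53.7 CPM untreated and at 67.4, 85.2, 67.1 and 52.4 CPM with Bch in mice 7, 8, 9 and 10. The Bch value was the higher in mice 7, 8 and 9 and slightly the lower in mouse 10, and the groups overlapped. The log2 fold change was 0.45 (SE 0.17), with an unadjusted p of 0.0125 and an adjusted p of 0.999 by edgeR. Rad23b, the second gene by p in that direction, was at 50.2, 49.8, 50.3 and 60.8 CPM untreated and at 55.3, 76.1, 75.3 and 56.2 CPM with Bch. Mice 8 and 9 gave most of its difference, and its log2 fold change was 0.31 (95% interval −0.038 to 0.657, adjusted p = 0.999, edgeR).

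Xrcc1, the scaffold that holds the base excision ligase, was lower with Bch in each of the 4 mice. It was at 30.8, 27.7, 30.5 and 37.6 CPM untreated and at 16.1, 23.4, 28.6 and 25.8 CPM with Bch in mice 7, 8, 9 and 10. The gap was widest in mouse 7 and narrowest in mouse 9, and the groups overlapped. The log2 fold change was −0.41 (SE 0.22, adjusted p = 0.999, edgeR), and −0.18 with the first technical replicate alone. Ercc2, a helicase of the TFIIH complex, was also lower in each mouse, at 5.02, 7.56, 7.62 and 8.64 CPM untreated and 1.01, 6.98, 6.35 and 4.22 CPM with Bch, a log2 fold change of −0.625 (95% interval −1.46 to 0.215). Its lowest value rests on 1 UMI.

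Of the 29 tested members, 3 were lower in all 4 mice (Xrcc1, Ercc2 and Xrcc6), where 5.76% of all tested genes were, and Nbn was higher in all 4, where 5.58% were. Fancd2, which did not pass the filter, was also lower in all 4, on 0 to 17 UMIs per sum. The shares given cover tested genes only. By pathway, 7 of 9 base excision genes lay below 0 (median −0.095), 5 of 9 nucleotide excision genes above 0 (median 0.0761), and 3 of 5 break sensing genes above 0 (median 0.0688), where 50.5% of all genes lay below 0. Beside these values, 10 of 11 goblet cell markers lay above 0 with Bch in BR7-BR10 (median 0.241, 0 called), where 49.5% of all genes did.

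**Figure D2:**
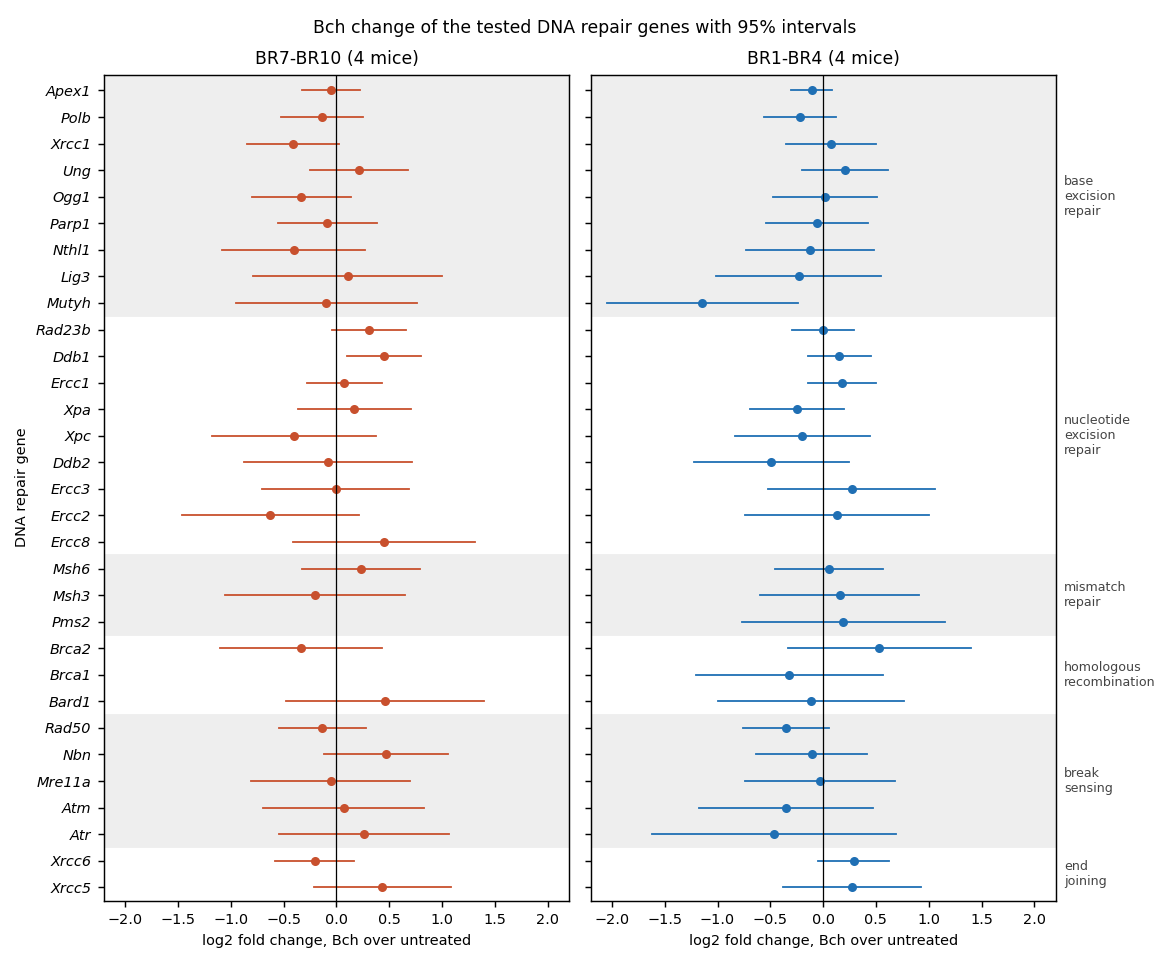
Bch change of the tested repair genes in each set, as log2 fold change of Bch over untreated cells on the horizontal axis, 1 gene per row grouped by pathway. Points are edgeR estimates from 4 mice and bars their 95% intervals. Bars leave out 0 for Ddb1 in BR7-BR10 (0.101 to 0.8) and for Mutyh in BR1-BR4 (−2.05 to −0.235), before any adjustment, and are narrowest for Apex1.

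The same question was asked of BR1-BR4. Here too 0 of 30 tested members were called at an adjusted p under 0.05 by edgeR or by DESeq2, where 0.021% of the 9509 tested genes were called by edgeR. The log2 changes had a median of −0.045, against 0.0012 over all genes, with 13 above 0 and 17 below 0, and it was 0.042 without mouse 1. At an unadjusted p under 0.05 there was 1 member by edgeR and 0 by DESeq2, where 7.72% of all genes passed by edgeR.

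That member was Mutyh, the glycosylase that removes adenine paired with oxidized guanine. It was at 9.76, 6.63, 6.78 and 6.55 CPM untreated and at 4.21, 3.48, 2.50 and 2.98 CPM with Bch in mice 1, 2, 3 and 4. The Bch value was the lower in each of the 4 mice, where 6.71% of all tested genes were lower in all 4. The log2 fold change was −1.14 (SE 0.45, unadjusted p = 0.0151, adjusted p = 0.492, edgeR). The values rest on 4 to 21 UMIs per sum. In BR7-BR10 Mutyh was at 11.3, 6.30, 3.56 and 5.55 CPM untreated and at 4.02, 6.98, 9.07 and 3.38 CPM with Bch, lower in mice 7 and 10 and higher in mice 8 and 9.

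Rad50, the tether of the MRN complex, was lower in all 4 mice of BR1-BR4. It was at 33.0, 45.1, 32.2 and 28.2 CPM untreated and at 27.1, 29.4, 29.5 and 23.8 CPM with Bch, a log2 fold change of −0.35 (95% interval −0.759 to 0.0562, adjusted p = 0.744, edgeR), and −0.23 without mouse 2. The gap was widest in mouse 2, and the groups overlapped. Xrcc6 went the other way, at 47.0, 38.4, 32.2 and 41.3 CPM untreated and 49.9, 50.2, 44.6 and 51.6 CPM with Bch, a log2 fold change of 0.29 (SE 0.17, adjusted p = 0.751, edgeR), and 0.50 with thinned counts. Brca2 was at 5.58, 3.98, 10.2 and 5.55 CPM untreated and at 8.42, 11.6, 3.50 and 9.43 CPM with Bch. It was higher in mice 1, 2 and 4 and lower in mouse 3, with a log2 fold change of 0.53 (SE 0.43), which was 0.17 without mouse 2 and 0.94 without mouse 3.

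Of the 30 tested members, 2 were higher in all 4 mice (Ddb1 and Xrcc6) and 2 lower in all 4 (Mutyh and Rad50), where 8.59% and 6.71% of all tested genes were. Among members that did not pass the filter, Fanca was also higher and Lig4 and Ercc8 lower in all 4. Those shares cover tested genes only, and the values of these 3 rest on few UMIs. They had 0 to 11 per sum for Fanca, 2 to 13 for Lig4 and 3 to 11 for Ercc8. The log2 changes of Ercc8 in single mice ran from −0.435 to −0.019. The fitted changes of the 5 break sensing genes Rad50, Nbn, Mre11a, Atm and Atr lay below 0 (median −0.348), although Nbn was higher with Bch in 3 of 4 mice and all 5 were lower in mouse 1 alone. Above 0 were the 3 mismatch genes (median 0.155), and below 0 were 6 of 9 base excision genes (median −0.109), where 49.7% of all genes lay below 0. None of these members passed the adjusted limit, so the counts describe signs and not calls.

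**Figure D3:**
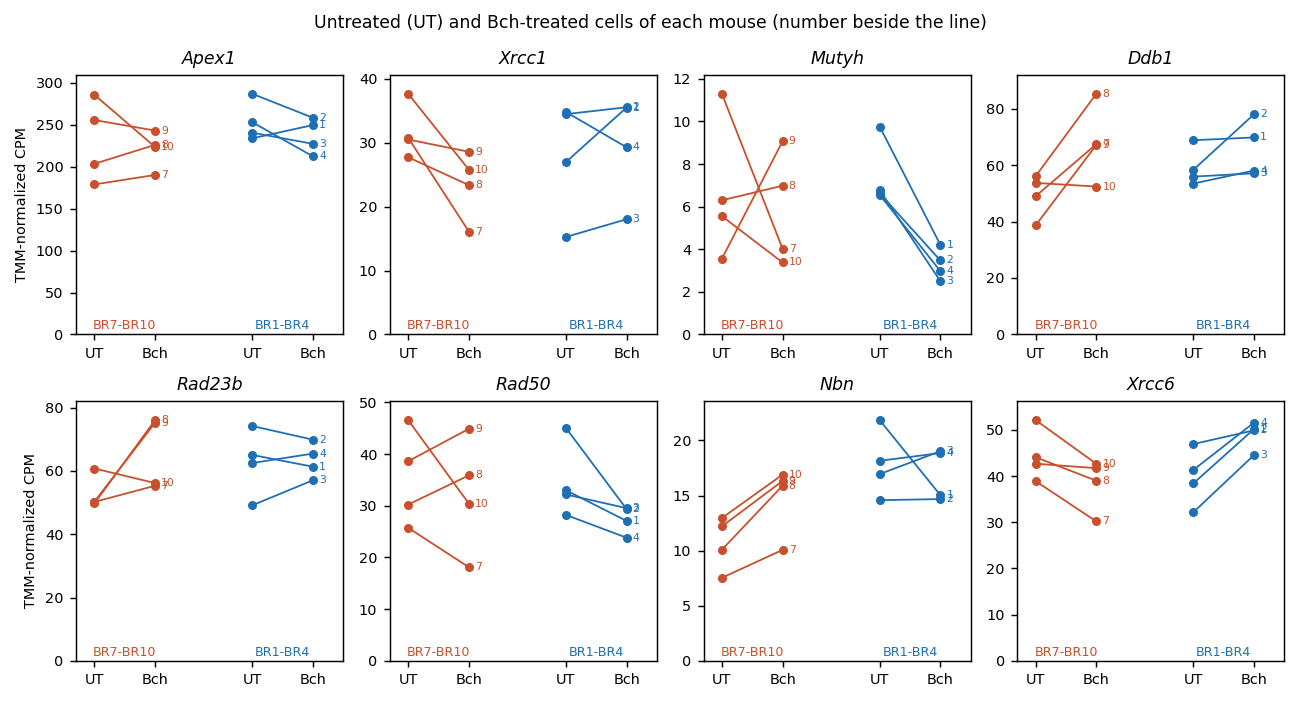
Levels of 8 repair genes in untreated (UT) and Bch-treated cells, as TMM-normalized CPM on the vertical axis from 0. Each line joins both treatments of 1 mouse, whose number stands beside it, red for BR7-BR10 and blue for BR1-BR4. The lines of Xrcc6 all slope down in BR7-BR10 and up in BR1-BR4, and those of Mutyh all slope down in BR1-BR4 but cross in BR7-BR10.

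Whether the Bch change differed between the sets was tested directly, as an interaction over all 16 sums. Of 33 tested members 0 passed an adjusted p under 0.05 by edgeR, as did 0% of the 10280 genes, and DESeq2 called 0. At an unadjusted p under 0.05 there was 1 member by edgeR and 0 by DESeq2, where 4.39% of all genes passed by edgeR (2.41% higher and 1.97% lower). The 1 member was Xrcc6, at 38.9, 44.1, 42.7 and 52.1 CPM untreated and 30.2, 39.0, 41.7 and 42.7 CPM with Bch in mice 7, 8, 9 and 10. The Bch value was the lower in all 4 of these mice and the higher in all 4 of BR1-BR4. The difference of its log2 changes, BR7-BR10 minus BR1-BR4, was −0.50 (SE 0.24, unadjusted p = 0.046, adjusted p = 1, edgeR), and −0.82 with thinned counts. A direction opposite in every mouse of the sets was seen in 0.778% of all genes. Its Ku partner Xrcc5 had log2 changes above 0 in both sets, 0.43 in BR7-BR10 and 0.27 in BR1-BR4.

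The other members with the smallest p for the difference were Lig4 (1.41, 95% interval −0.184 to 3.01), Xrcc1 (−0.49, −1.08 to 0.107) and Mutyh (1.05, −0.235 to 2.33), each with an adjusted p of 1 by edgeR. The difference for Mutyh was 0.58 without mouse 9, and that for Xrcc1 was −0.31 with the first technical replicate alone and −0.92 with thinned counts. Lig4 was at 1.88, 6.30, 3.56 and 1.23 CPM untreated and 7.04, 5.30, 2.72 and 1.69 CPM with Bch in mice 7, 8, 9 and 10. The difference was 1.00 without mouse 7 and 1.91 without mouse 4. In BR1-BR4 it was at 4.65, 8.62, 3.39 and 3.53 CPM untreated and 1.20, 2.70, 1.50 and 3.47 CPM with Bch, lower in each mouse, on 2 to 13 UMIs per sum. The changes of single mice did not overlap between the sets for Nbn, higher in BR7-BR10, where 1.39% of genes did not in that direction, and for Xrcc6, lower, where 1.42% did not. Of the 28 members tested in both sets, 5 lay above 0 in both, 9 below 0 in both and 14 on opposite sides.

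Over all 8 pairs, 0 of 33 members passed an adjusted p under 0.05 by edgeR or DESeq2, where 0% of all genes passed by edgeR, and 1 member passed at an unadjusted p under 0.05 with either tool, where 5.4% of all genes passed by edgeR (3.13% higher and 2.27% lower). That member was Ddb1, with a shared log2 fold change of 0.30 (SE 0.11, unadjusted p = 0.0102, adjusted p = 0.886, edgeR), higher with Bch in 7 of 8 mice. The next were Mutyh (−0.56, SE 0.32, lower in 6 of 8), Rad50 (−0.24, SE 0.14, lower in 6 of 8) and Xrcc5 (0.36, SE 0.22, higher in 6 of 8), with adjusted p of 0.906 each by edgeR. The value of Mutyh was −0.87 without mouse 9 and that of Xrcc5 was 0.17 with the second technical replicate alone. No member moved the same way in all 8 mice, where 0.554% of genes were higher in all 8 and 0.447% lower.

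Of the base excision genes 8 of 9 lay below 0 in the shared fit (median −0.168), the exception being the uracil glycosylase Ung (0.21, SE 0.15), where 48.6% of all genes lay below 0. Beside Mutyh, the values were −0.27 (SE 0.22) for Nthl1, the glycosylase for oxidized pyrimidines, −0.18 (SE 0.15) for Xrcc1, −0.18 (SE 0.13) for Polb, −0.17 (SE 0.17) for Ogg1, −0.08 (SE 0.079) for Apex1, −0.074 (SE 0.17) for Parp1, the sensor of strand breaks, and −0.052 (SE 0.31) for Lig3. The 95% interval of each of the 9 included 0. Over all 33 members 13 lay above 0, where 51.4% of all genes did, and the median was −0.047, against 0.0063 over all genes. The members' median was −0.0047 without mouse 1 and 0.11 with thinned counts.

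The precision of the tests sets what could have been seen. The median half-width of the 95% interval was 0.65 on the log2 scale in BR7-BR10, 0.62 in BR1-BR4, 0.99 for the difference and 0.49 for the shared change. It was narrowest for Apex1, at 0.27, 0.19, 0.33 and 0.16, so that the shared change of Apex1 lay between −0.241 and 0.08. A log2 change of 1 in either direction lay outside the interval for 18 of 29 members in BR7-BR10, 20 of 30 in BR1-BR4 and 31 of 33 in the shared fit, but for only 10 of 33 for the difference between the sets. The 10 members tested in neither set (Ercc4, Ercc5, Ercc6, Palb2, Rad51c, Prkdc, Lig4, Fanca, Fancd2 and Fanci) were too low for such a statement there, Ercc8 passed the filter in BR7-BR10 only, and Pms2 and Brca1 passed in BR1-BR4 only.

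**Figure D4:**
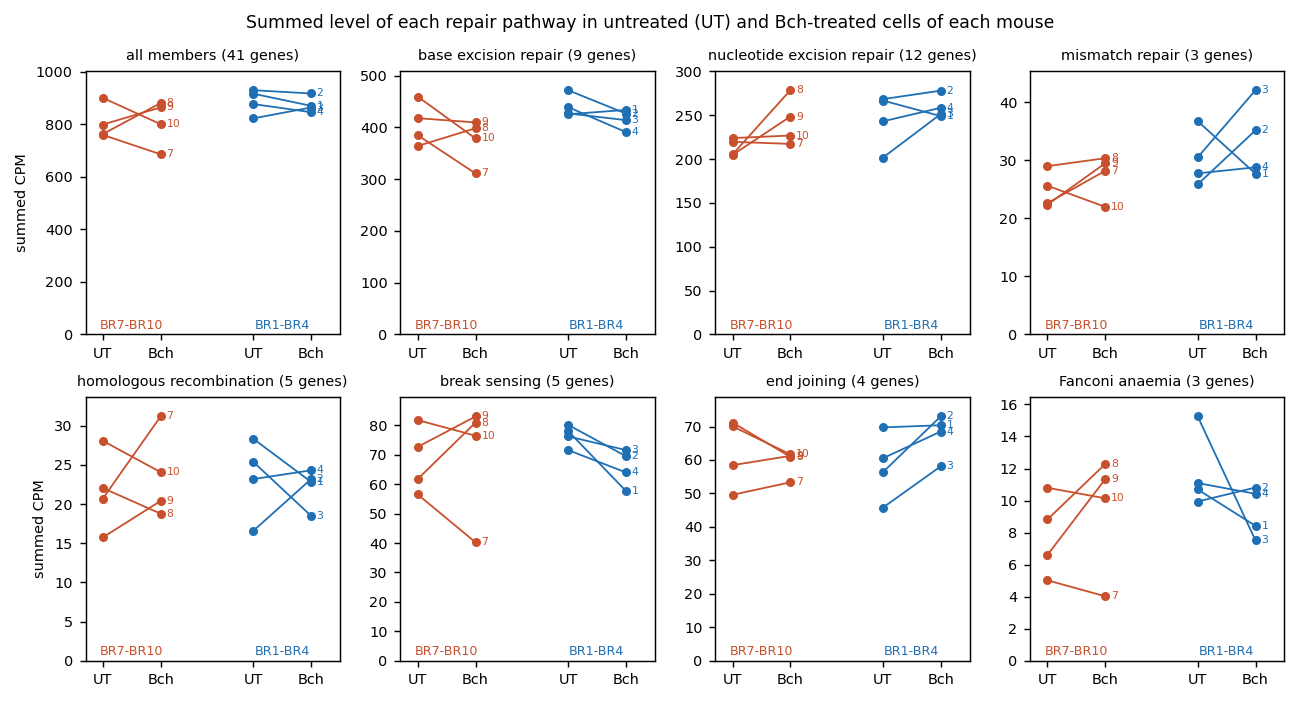
Summed level of all 41 genes and of each pathway in untreated (UT) and Bch-treated cells, as summed TMM-normalized CPM on the vertical axis from 0. Each line joins both treatments of 1 mouse (number beside it), red for BR7-BR10 and blue for BR1-BR4. The sum of all 41 lies between 685 and 929 CPM, and mouse 7 with Bch is the lowest sum.

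The summed level of the 41 genes differed between treatments by less than the spread between mice. In BR7-BR10 it was 805 ± 65.7 CPM untreated and 807 ± 88.4 CPM with Bch (SD, n = 4), and in BR1-BR4 886 ± 48.2 and 874 ± 30.3 CPM (SD, n = 4). The break sensing genes summed to 71.6 to 80.2 CPM untreated and 57.7 to 71.6 CPM with Bch in BR1-BR4, where each of the 4 mice was lower with Bch. The mean of Rad50 in these mice was 34.6 CPM untreated and 27.4 CPM with Bch, beside 76.5 and 65.7 CPM for the whole sum. In BR7-BR10 the break sensing genes summed to 56.5 to 81.8 CPM untreated and 40.2 to 83.0 CPM with Bch, lower in mice 7 and 10 and higher in mice 8 and 9. The end joining sum was higher with Bch in all 4 mice of BR1-BR4 (45.7 to 69.7 CPM untreated, 58.1 to 73.0 CPM with Bch), and Xrcc6 makes up most of it. In BR7-BR10 it was higher in mice 7 and 9 and lower in mice 8 and 10 (49.6 to 71.2 CPM untreated, 53.3 to 61.7 CPM with Bch). Since bulk cells were measured, fewer cells of a type and less RNA per cell cannot be told apart in these values.

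In untreated cells, the members were lower in BR7-BR10 than in BR1-BR4 more often than higher (19 of 28 tested, median log2 difference −0.168, against −0.016 over all genes, of which 52.1% were lower and 47.9% higher). The members' median was −0.063 without mouse 1. At an adjusted p under 0.05 there were 0 members by edgeR or DESeq2, where 1.64% of the 9159 genes passed by edgeR (0.972% higher and 0.666% lower), and at an unadjusted p under 0.05 there were 3 by edgeR and 2 by DESeq2, where 12.7% passed by edgeR (6.66% higher and 6.05% lower). These 3, Nbn, Xpa and Polb, were all lower in BR7-BR10 and are named after their values were seen. Nbn, the adaptor of the MRN complex, was at 7.53, 10.1, 12.2 and 13.0 CPM in untreated mice 7, 8, 9 and 10 and at 21.8, 14.6, 16.9 and 18.2 CPM in mice 1, 2, 3 and 4. The sets did not overlap for Nbn, as for 3.43% of all genes in that direction and 4.55% in the other, and the log2 difference was −0.74 (SE 0.29, unadjusted p = 0.015, adjusted p = 0.238, edgeR).

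With Bch, Nbn in BR7-BR10 was higher than untreated in each mouse, at 10.1, 15.9, 16.3 and 16.9 CPM, and overlapped the range of BR1-BR4 with Bch (14.7 to 19.0 CPM). Its Bch change in BR7-BR10 was 0.47 on the log2 scale (SE 0.29, adjusted p = 0.999, edgeR), and it shares the untreated sums with the comparison of the sets. Xpa, which verifies the lesion, differed between untreated sets by −0.66 (SE 0.27) and Polb by −0.40 (SE 0.18) on the log2 scale, with adjusted p of 0.25 and 0.348 by edgeR, and the ranges of the sets overlapped for both. The value of Polb was −0.16 with thinned counts. Beside these values, 10 of 11 tested stem cell markers were lower in untreated BR7-BR10 (median −0.511, 2 called, Ascl2 and Axin2) and all 10 tested colonocyte markers were higher (median 0.753, 3 called, Muc3, Aqp8 and Guca2b). Also higher there were 9 of 11 goblet cell markers (median 0.334, 0 called) and 8 of 10 enteroendocrine markers (median 0.49, 0 called). The part of this difference in the repair values was not tested.

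A wider list of 138 other repair and damage checkpoint genes also held no call with Bch. In BR7-BR10, 108 were tested and 0 were called by edgeR or DESeq2, where 0% of all genes were by edgeR. Of these, 40 lay above 0 and 68 below 0 (median −0.088), where 50.5% of all genes lay below 0 (median −0.0022). In BR1-BR4, 108 were tested and 0 were called by edgeR or DESeq2, where 0.021% of all genes were by edgeR. Here 50 lay above 0 and 58 below 0 (median −0.035), where 49.7% of all genes lay below 0 (median 0.0012). At an unadjusted p under 0.05 there were 1 higher and 4 lower in BR7-BR10, where 2.48% and 1.3% of all genes were, and 2 higher and 5 lower in BR1-BR4, where 4.46% and 3.26% were. In BR7-BR10 the smallest p in each direction belonged to Shprh (1.14, SE 0.45) and Rad17 (0.69, SE 0.35), a clamp loader of the checkpoint, and to Rnf168 (−0.53, SE 0.23), a ubiquitin ligase at breaks, and Shld1 (−0.65, SE 0.29), a subunit of the shieldin complex that protects broken ends. In BR1-BR4 they belonged to Cul4b (0.76, SE 0.35), Etaa1 (0.75, SE 0.36), Fen1 (−0.37, SE 0.12) and Shld3 (−0.94, SE 0.35). Without mouse 1 the value of Etaa1 was 0.49 and that of Shld3 −1.44.

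Fen1, the flap endonuclease of long-patch base excision repair and of replication, was the most precise of these. It was at 116 ± 12.4 CPM untreated and 90.4 ± 16.5 CPM with Bch in BR1-BR4 (SD, n = 4), lower in all 4 mice, with an unadjusted p of 0.00443 and an adjusted p of 0.319 by edgeR. In BR7-BR10 it was at 117 ± 31.5 and 96.7 ± 17.6 CPM (SD, n = 4), a log2 change of −0.26 (SE 0.15). Of 28 cycling markers 15 lay below 0 in BR7-BR10 (median −0.012) and 21 in BR1-BR4 (median −0.069), where 50.5% and 49.7% of all genes did. By edgeR 0 were called in either set, where 0% and 0.021% of all genes were. At an unadjusted p under 0.05 there were 0 and 2, where 3.78% and 7.72% of all genes passed by edgeR. The targets of p53, which respond to DNA damage, had medians of −0.022 over 18 tested genes and −0.0036 over 19. Of them 0 were called by edgeR in either set. At an unadjusted p under 0.05 there were 2 and 1, beside the same 3.78% and 7.72% of all genes.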

How the data were processed

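RNA from sorted Lgr5-EGFP+ colonoid cells was sequenced in 32 libraries. The authors primed cDNA with barcoded oligo-dT carrying UMIs, and ran the Drop-seq pipeline (v1.0) against GRCm38 with GENCODE M25, per the paper's methods. The deposited table holds raw UMI counts per gene. Strand and multimapping settings are not given in the sources used here. In 1520 genes the cells of all second technical replicates were blank and were read as 0 (at most 4 UMIs in a first-replicate library). Technical replicates were summed per mouse and treatment, giving 16 sums of 557512 to 4050342 UMIs.

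Genes were filtered with filterByExpr, scaled by TMM and fitted with edgeR 4.0.16 (limma 3.58.1, R 4.3.3; quasi-likelihood, robust). The mouse was a block for Bch within each set of 4 mice, for the shared change over 8 pairs and for the interaction. Untreated sets were compared without a block. P-values were adjusted over all tested genes (Benjamini-Hochberg, limit 0.05), and intervals are 95%. The pairing comes from the labels, since both treatments of a number are colonoids of 1 mouse. Deviations of paired sums from their group means correlated at −0.0361 to 0.269 across genes. The mice are separate animals.

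The 41 members and all lists were chosen with earlier results of these data known. Named are the 2 members per direction with the smallest p in each Bch comparison, the 3 highest and 3 lowest by level, and the 2 other repair genes per direction and set. Nbn, Xpa and Polb in untreated cells, the members within a complex, and the marker genes were added after values were seen. Positions of 3′ ends came from GENCODE M21 on GRCm38. Alternatives were DESeq2 1.42.0, other size factors, no filter, single technical replicates, thinned counts, no block, a joint fit and leaving out each mouse. The scripts were tested on simulated data. Some repair genes outside the lists are not reported here.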

Additional observations from a re-analysis of the deposited data

Results flagged for a closer look

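In groups of 4 mice, 1 sum stood apart from the other 3 by Dixon's test in 11 of 196 groups examined (5.61%), where chance gives about 1 in 20. Among untreated sums of BR7-BR10, mouse 10 was the highest for Rad23b (60.8 CPM, the others 49.8 to 50.3) and Brca1 (9.56 CPM, the others 4.57 to 5.04), and mouse 7 for Ercc3 (11.3 CPM, the others 8.64 to 8.95). Among Bch sums of BR7-BR10, mouse 10 was the highest for Brca2 (11.0 CPM, the others 4.99 to 5.30), and mouse 7 the highest for Pms2 (8.05 CPM) and the lowest for Nbn (10.1 CPM, the others 15.9 to 16.9). Mouse 7 with Bch was also the lowest for the break sensing sum (40.2 CPM, the others 76.5 to 83.0) and the end joining sum (53.3 CPM, the others 60.9 to 61.7). Beside these values, the goblet cell markers summed to 14831 CPM in that sum and to at most 9935 CPM in every untreated sum of the set. In BR1-BR4, untreated mouse 1 was the highest for Mutyh (9.76 CPM, the others 6.55 to 6.78), mouse 3 with Bch the highest for Ogg1 (31.5 CPM, the others 19.3 to 20.5), and mouse 1 with Bch the lowest for Atm (1.20 CPM on 2 UMIs, the others 8.44 to 9.27).

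The Bch change of Xrcc6 went down in all 4 mice of BR7-BR10 and up in all 4 of BR1-BR4. The interaction gave a difference of −0.50 on the log2 scale with an adjusted p of 1 by edgeR, and 80 of 10280 genes had such opposite directions.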

How the results depend on the processing

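No setting brought a member past the adjusted limit in any of the 5 comparisons, and no named log2 change reversed. Without the replicate block for the mouse, the Bch comparisons still called 0 members, and the block changed no call. With 1 mouse left out at a time, the members' median log2 change ran from −0.084 to 0.092 in BR7-BR10, −0.076 to 0.042 in BR1-BR4, 0.028 to 0.162 for the difference, −0.083 to −0.0047 for the shared change and −0.207 to −0.063 between untreated sets. Its sign turned without mouse 7 (0.092), without mouse 10 (0.0506) and with the second technical replicate alone (0.172) in BR7-BR10, and without mouse 1 (0.042), with the second technical replicate alone (0.0037) and with thinned counts (0.0638) in BR1-BR4. It also turned with thinned counts for the difference (−0.0744) and the shared change (0.11), and with the first technical replicate alone for the shared change (0.0584). The cause was not tested. Between untreated sets it ran from −0.235 to −0.087 under settings that kept all mice. The number of members at an unadjusted p under 0.05 ran from 0 to 3 in the Bch comparisons and from 1 to 4 between untreated sets. Of the other repair genes 1 was called between untreated sets without mouse 1. The settings that moved the log2 changes of Xrcc1, Xrcc6, Xrcc5, Polb, Mutyh, Lig4, Rad50, Brca2, Etaa1 and Shld3 most are given beside those results. Leaving out the 13 genes with overlapping 3′ ends, chosen after seeing the data, gave medians of −0.0716 in BR7-BR10 and −0.0453 in BR1-BR4. Depth limits the low members, whose values rest on few UMIs.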

Other observations

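Of 11 tested genes in the list of other mismatch repair genes, 10 were below 0 with Bch over all 8 pairs (median −0.144), where 48.6% of all genes were, and 0 were called by edgeR, with 1 at an unadjusted p under 0.05. They included the clamp loader subunit Rfc2 (−0.18, SE 0.082, lower in 6 of 8 mice), the polymerase delta subunits Pold1 (−0.23, SE 0.18) and Pold4 (−0.19, SE 0.14), and Rfc4 (−0.13, SE 0.083, lower in 6 of 8). Rfc1 was the exception (0.11, SE 0.13). That list holds mainly subunits of the clamp loader and of polymerase delta. In the same fit 2 of the 3 mismatch repair members lay above 0 (median 0.119), and 20 of 28 cycling markers lay below 0 (median −0.07). The shared change of Fen1 was −0.32 (SE 0.096), lower in 7 of 8 mice, with an unadjusted p of 0.00198 and an adjusted p of 0.726 by edgeR. It ranked 28th by p among 10280 genes, and these genes were named after their values were seen.

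Of the p53 targets, Cdkn1a, the cell cycle inhibitor, was picked after its values were seen. It had a log2 change of 0.47 (SE 0.18) in BR7-BR10 and −0.11 (SE 0.12) in BR1-BR4. In BR7-BR10, 8 of the 18 tested targets lay above 0 and 10 below 0, with changes from −0.522 to 0.657. The difference for Cdkn1a was 0.59 (SE 0.29, unadjusted p = 0.0587, adjusted p = 1, edgeR). For the difference 1 other target had an unadjusted p under 0.05 by edgeR, where 4.39% of all genes did. In untreated cells Plk2 was lower in BR7-BR10 by 0.99 on the log2 scale (adjusted p = 0.0252, edgeR). It was the only called gene of the 19 p53 targets tested there, where 1.64% of all genes were called.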
